A study of Mus musculus with 12 samples.

Results

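The genes described here are the solute carrier (SLC) transporters of mouse embryonic fibroblasts (MEFs) cultured with either of 2 chemical combinations. They were taken as every gene whose symbol in the array annotation begins with Slc and a digit, apart from Slc7a11 and Slc14a1, and were kept where at least 1 of the 6 group means exceeded a level of 7 on the log2(intensity + 16) scale after quantile normalization. The members were therefore chosen by measured values: of 260 such genes with a probe set assigned to a single symbol, 115 passed and 145 did not, and 206 were bright enough to be tested at all. Of the 115 members, 84 exceeded the level in all 6 groups, 31 did not, and 11 exceeded it only in groups after day 0. Just outside lay Slc29a1 at 6.98 and Slc35c2 at 6.99 in their highest group, and just inside lay Slc2a10 at 7.06 and Slc6a9 at 7.10. A member that passed only through the group in which it was high had to differ between groups, so counts over members are descriptions.

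Solute carriers are membrane proteins that move amino acids, sugars, lactate, ions, metals, vitamins and nucleotides across the plasma membrane and the membranes of organelles. They work as uniporters, as symporters driven by sodium or proton gradients, or as exchangers, and the Slc25 family serves the inner mitochondrial membrane. In fibroblasts the set in use follows growth rate, nutrient supply and differentiation state, since glucose uptake, lactate release and the supply of essential amino acids each pass through a few of these proteins.

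RNA was measured on 12 Affymetrix GeneChip Mouse Genome 430A 2.0 arrays, 2 arrays for each of 6 groups: MEFs with 6TCF at days 0, 5 and 10, and MEFs with SGCF at days 0, 5 and 10. 6TCF and SGCF are code names of chemical combinations, whose components the labels do not list. Fibroblasts prepared embryo by embryo were grown with 10% fetal bovine serum and moved on the following day to a medium shared by both arms, with 15% serum, 2 mM GlutaMax, 1% nonessential amino acids, 0.1 mM β-mercaptoethanol and 40 ng/ml basic fibroblast growth factor. The labels do not say from which medium the day 0 arrays were taken, nor whether paired arrays came from separate cultures or embryos, so the p-values measure the spread between these arrays, which may be technical. No untreated culture at day 5 or 10 is among the samples, so the combination, the medium and time in culture cannot be told apart, and neither can the arm and any difference in processing between the arms. These are bulk samples, in which fewer cells of a type and less RNA per cell cannot be told apart.

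All 12 arrays carried fibroblast collagen at high levels, with group means of Col1a2 from 13.24 to 14.03. Before normalization the median intensity of an array ran from 102.4 to 141.97 with 6TCF and from 60.9 to 86.2 with SGCF, and replicate arrays correlated at 0.985 to 0.997 across genes. As a measure of RNA integrity, actin read at the transcript's 3′ end exceeded actin at its 5′ end by 0.297 to 1.04 log2 units with 6TCF, least at day 0 and most at day 10, and by 0.276 to 0.481 with SGCF. The part of this difference in the results was not tested.

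Changes are differences between group means of 2 arrays each on the log2(intensity + 16) scale, where the added 16 compresses the changes of dim genes. A change was called where limma's Benjamini-Hochberg adjusted p over 10674 tested genes was below 0.05. In the comparison of day 5 with day 0 under 6TCF, 29 members were higher and 15 lower, where 15.1% and 12.6% of all tested genes were called higher and lower. By day 10 under 6TCF, 33 members were higher and 24 lower, against 23.2% and 20% of tested genes. Under SGCF, 27 members were higher and 9 lower at day 5, against 12.8% and 12.7% of tested genes. At day 10 under SGCF the counts were 40 higher and 11 lower, against 20.5% and 18.3%. The members' share called higher was above that of all tested genes in each of the 4 comparisons (25.2%, 28.7%, 23.5% and 34.8% of members), and their share called lower at day 10 of SGCF was 9.57%. Brighter genes were called more often: among the 7477 tested genes that passed the same level of 7, the shares called higher were 17.8%, 27.3%, 15.1% and 24.3% in the same order, and those called lower 15.1%, 24.4%, 14.6% and 21.9%. Of the 84 members above the level in every group, 22.6%, 25%, 21.4% and 36.9% were called higher and 7.14%, 17.9%, 5.95% and 7.14% lower. At day 10 of 6TCF the share higher among these 84 was below that of the 7477 genes. At the other 3 comparisons it was above it. The 84 had to exceed the level in every group, but the 7477 only in their highest group. These shares are therefore not like for like, and shares for all genes above the level in every group were not computed.

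The median change of members was 0.11 and 0.05 at days 5 and 10 of 6TCF and 0.15 and 0.23 at days 5 and 10 of SGCF, where the median of all tested genes lay between -0.01 and 0.03. Scaling arrays to a common median instead of quantile normalization gave 22 members higher and 19 lower at day 5 of 6TCF and 29 and 25 at day 10. Under SGCF it gave 24 higher and 9 lower at day 5 and 28 and 11 at day 10, where quantile normalization gave 40 and 11 at day 10. The excess of higher over lower members was thus smaller with median scaling. It was small under 6TCF and remained under SGCF, so its size depends on the normalization. The counts from day 0 under 6TCF, 44 at day 5 and 57 at day 10, became smaller without any 1 array of the groups compared. That held for the day 0 arrays and for the later arrays alike, and each such fit leaves 1 array in a group.

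**Figure D1:**
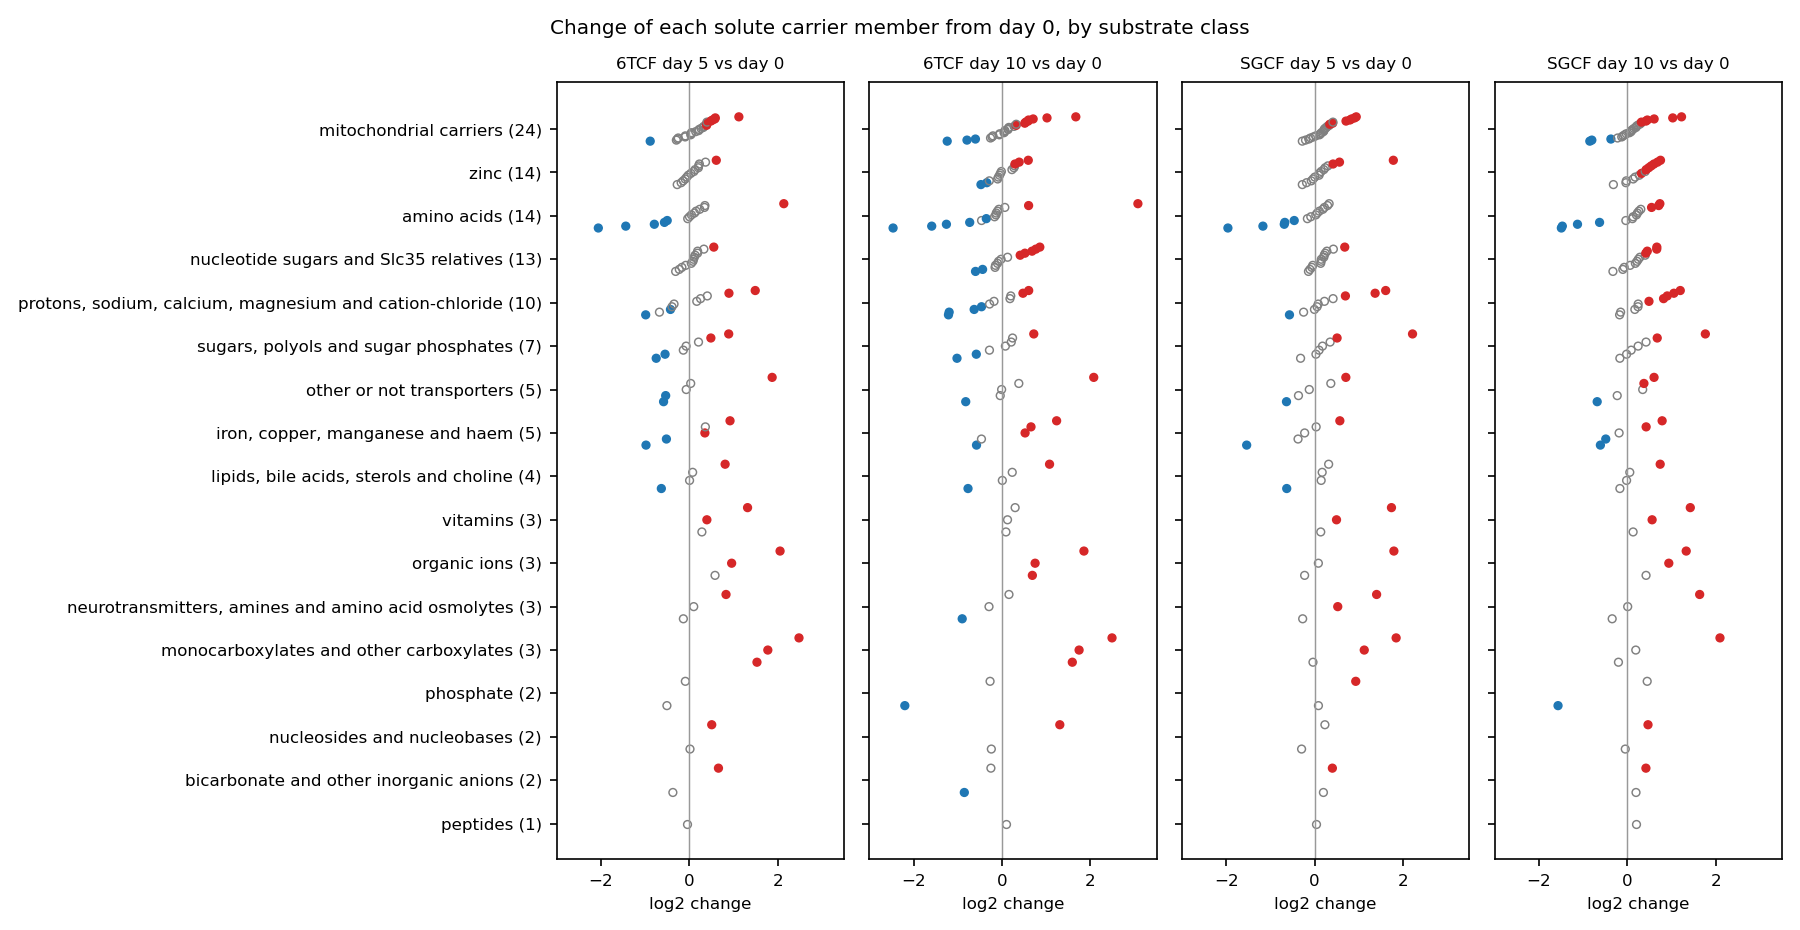
Log2 change from day 0 (horizontal axis) of each of the 115 members, 1 point a gene, grouped by substrate class with the number of members in parentheses, in 4 panels for the 2 arms and 2 days. Red points were called higher and blue points lower at an adjusted p below 0.05, and open points were not called. Most classes hold points on both sides of 0, while the 3 carboxylate carriers lie between 1.53 and 2.49 at both days of 6TCF and 5 of 14 amino acid carriers are blue at both days of 6TCF. Of these carboxylate carriers, Slc16a11 and Slc16a6 passed the level of 7 only in 6TCF groups after day 0. Of the amino acid carriers, Slc1a6 and Slc6a15 passed it only in day 0 groups.

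Of the 115 members, 27 were called in none of the 4 changes from day 0 and 13 in all 4. Of those 13, 6 were higher each time (Slc16a1, Slc22a23, Slc25a23, Slc41a2, Slc48a1 and Slc8a1) and 5 were lower each time (Slc1a6, Slc40a1, Slc6a15, Slc7a5 and Slc7a6). The remaining pair, Slc2a1 and Slc9a3r1, went opposite ways in the 2 arms. Of the 6, Slc22a23, Slc25a23 and Slc8a1 passed the level of 7 only in groups after day 0. Of the 5, Slc1a6 and Slc6a15 passed it only in day 0 groups. Part of these directions was therefore fixed by the choice of members. Over all tested genes 35.3% were called in none of the 4 changes and 10.3% in all 4, against 23.5% and 11.3% of members, and among genes past the level of 7 these shares were 26% and 13.3%. At day 10, 17 members were called higher in both arms, 7 lower in both and 4 in opposite directions, the last being Slc2a1, Slc39a6, Slc41a1 and Slc9a3r1. Those members are 14.8%, 6.09% and 3.48% of the 115, where 11.5%, 9.13% and 2.14% of all tested genes and 14.4%, 11.5% and 2.82% of those past the level of 7 had the same pattern. The 2 arms have separate day 0 arrays, so the day 10 counts over both arms share no control sample. The counts over all 4 changes do, because days 5 and 10 of an arm are compared with the same day 0 arrays.

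Amino acid carriers made up 14 of the members. Under 6TCF 1 was higher and 5 lower at day 5, where 15.1% and 12.6% of tested genes were called, and 2 were higher and 5 lower at day 10, against 23.2% and 20%. The SGCF arm had 0 higher and 5 lower at day 5, against 12.8% and 12.7%, and 3 higher and 4 lower at day 10, against 20.5% and 18.3%, with a median change of 0.17 at that day. The lower set was led by Slc7a5, Slc1a6 and Slc6a15, and the largest rise in the class was that of Slc7a8 under 6TCF. Slc7a8 passed the level of 7 only in 6TCF groups after day 0. Slc1a6 passed it only in day 0 groups, and Slc6a15 only at day 0 of 6TCF. The choice of members therefore required these genes to read higher in those groups.

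Slc7a5 encodes LAT1, the exchanger that brings leucine and other large neutral amino acids into dividing cells as a heterodimer with the heavy chain Slc3a2. On the 6TCF arrays Slc7a5 read 9.26 and 9.34 at day 0, 8.65 and 8.38 at day 5 and 7.65 and 7.78 at day 10, and on the SGCF arrays 9.30 and 8.85, 8.31 and 8.47 and 7.63 and 7.54. Each step down was larger than the gap between replicate arrays in both arms, and no later array reached a day 0 value. The change by day 10 was -1.59 ± 0.16 (SE, adjusted p = 7.61e-06) under 6TCF and -1.49 ± 0.16 (SE, adjusted p = 1.46e-05) under SGCF. The partner chain did not follow: Slc3a2, measured at 10.11 and 9.79 at day 0 and 10.53 and 10.58 at day 10 of 6TCF, rose by 0.60, and under SGCF it changed by 0.26 without passing the test. Slc7a6, a second light chain of this family that exchanges cationic for neutral amino acids, fell by smaller amounts, -0.35 under 6TCF and -0.63 under SGCF at day 10.

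Slc7a8 encodes LAT2, the light chain typical of epithelia, which also pairs with Slc3a2. The level of Slc7a8 at days 0, 5 and 10 was 5.39 and 4.92, then 7.10 and 7.49, then 8.26 and 8.21 under 6TCF, and 5.62 and 4.98, then 5.00 and 5.28, then 5.91 and 6.12 under SGCF. Under 6TCF all later arrays lay above all day 0 arrays, and under SGCF the day 5 arrays overlapped those of day 0. The rise was 2.14 ± 0.22 (SE, adjusted p = 1.86e-05) at day 5 and 3.08 ± 0.22 (SE, adjusted p = 5.87e-07) at day 10 of 6TCF, and 0.71 at day 10 of SGCF. Within the 6TCF arm one light chain of Slc3a2 thus fell while another rose. The choice of members required the latter, Slc7a8, to read high there after day 0.

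Slc6a15, a sodium-dependent carrier of branched-chain amino acids and proline, fell in both arms. Slc6a15 stood at 7.39 and 7.35 on the day 0 arrays of the 6TCF arm, 5.32 and 5.31 at day 5 and 4.92 and 4.90 at day 10, and at 6.47 and 6.43, 5.43 and 6.12 and 5.26 and 5.38 on the corresponding SGCF arrays. The change by day 10 was -2.46 ± 0.18 (SE, adjusted p = 5.64e-07) under 6TCF and -1.13 ± 0.18 (SE, adjusted p = 3.51e-04) under SGCF. Slc1a6, a glutamate and aspartate carrier best known from cerebellar Purkinje cells, read 7.55 and 7.65 at day 0 and 6.07 and 6.26 at day 5 of 6TCF, and 7.65 and 6.97 and 5.15 and 5.55 at these days of SGCF. Its day 5 changes were -1.44 ± 0.21 (SE, adjusted p = 2.39e-04) and -1.96 ± 0.21 (SE, adjusted p = 2.05e-05), with no overlap of arrays. Slc1a4, the ASCT1 exchanger of alanine, serine and cysteine, dipped and returned under SGCF: 8.61 and 8.07 at day 0, 7.17 and 7.16 at day 5 and 8.34 and 8.57 at day 10. That is a fall of -1.17 ± 0.17 (SE, adjusted p = 2.80e-04) and then a rise of 1.29 ± 0.17 (SE, adjusted p = 2.23e-04). Under 6TCF it was lower at both days, by -0.50 and -0.73. Slc38a2, the SNAT2 carrier of small neutral amino acids that responds to amino acid shortage in many cells, rose at day 10 of SGCF (0.74) and changed by -0.17 under 6TCF, which did not pass.

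All 3 monocarboxylate carriers among the members rose at both days of 6TCF, where 15.1% and 23.2% of tested genes were called higher. The array held 11 genes of this class, and the rest did not pass the level of 7. Slc16a11 and Slc16a6 passed it only in 6TCF groups after day 0, so the choice of members required them to read higher there. Slc16a1 encodes MCT1, a proton-coupled carrier of lactate, pyruvate and ketone bodies. On the 6TCF arrays Slc16a1 read 9.79 and 9.78 at day 0, 11.35 and 11.28 at day 5 and 11.38 and 11.37 at day 10, and on the SGCF arrays 9.26 and 9.82, 11.23 and 11.54 and 11.45 and 11.82. In both arms every array at day 5 or 10 lay above every day 0 array. The rise by day 10 was 1.59 ± 0.18 (SE, adjusted p = 2.88e-05) under 6TCF and 2.10 ± 0.18 (SE, adjusted p = 3.33e-06) under SGCF. The difference between the arms at day 10 was 0.51, with a 95% interval of -0.06 to 1.07, and was not called.

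The other carboxylate carriers separated the arms. Slc16a11, a proton-coupled monocarboxylate carrier described in liver, was at 5.65 and 5.83 at day 0, 8.31 and 8.13 at day 5 and 8.19 and 8.27 at day 10 of 6TCF. Under SGCF it read 5.55 and 5.51, then 6.81 and 6.49, then 5.67 and 5.77, a rise at day 5 (1.12) followed by day 10 values near those of day 0. Its change by day 10 was 2.49 ± 0.14 (SE, adjusted p = 6.41e-08) under 6TCF, while the SGCF change of 0.19 did not pass. Slc16a6, an exporter of the ketone body β-hydroxybutyrate, read 5.51 and 5.72 at day 0 and 7.19 and 7.53 at day 10 of 6TCF and lay between 5.03 and 5.63 on every SGCF array. It rose by 1.78 ± 0.19 (SE, adjusted p = 2.01e-05) at day 5 and 1.75 ± 0.19 (SE, adjusted p = 1.53e-05) at day 10 of 6TCF. Both genes were dim at day 0, so the size of these rises depends on the pseudocount: at 64 in place of 16, the Slc16a6 change at day 10 was 1.14. The same setting brought the 6TCF day 5 change of Slc7a8 to 1.30 and the 6TCF day 10 change of Slc6a15 to -1.46, and each of these calls held.

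**Figure D2:**
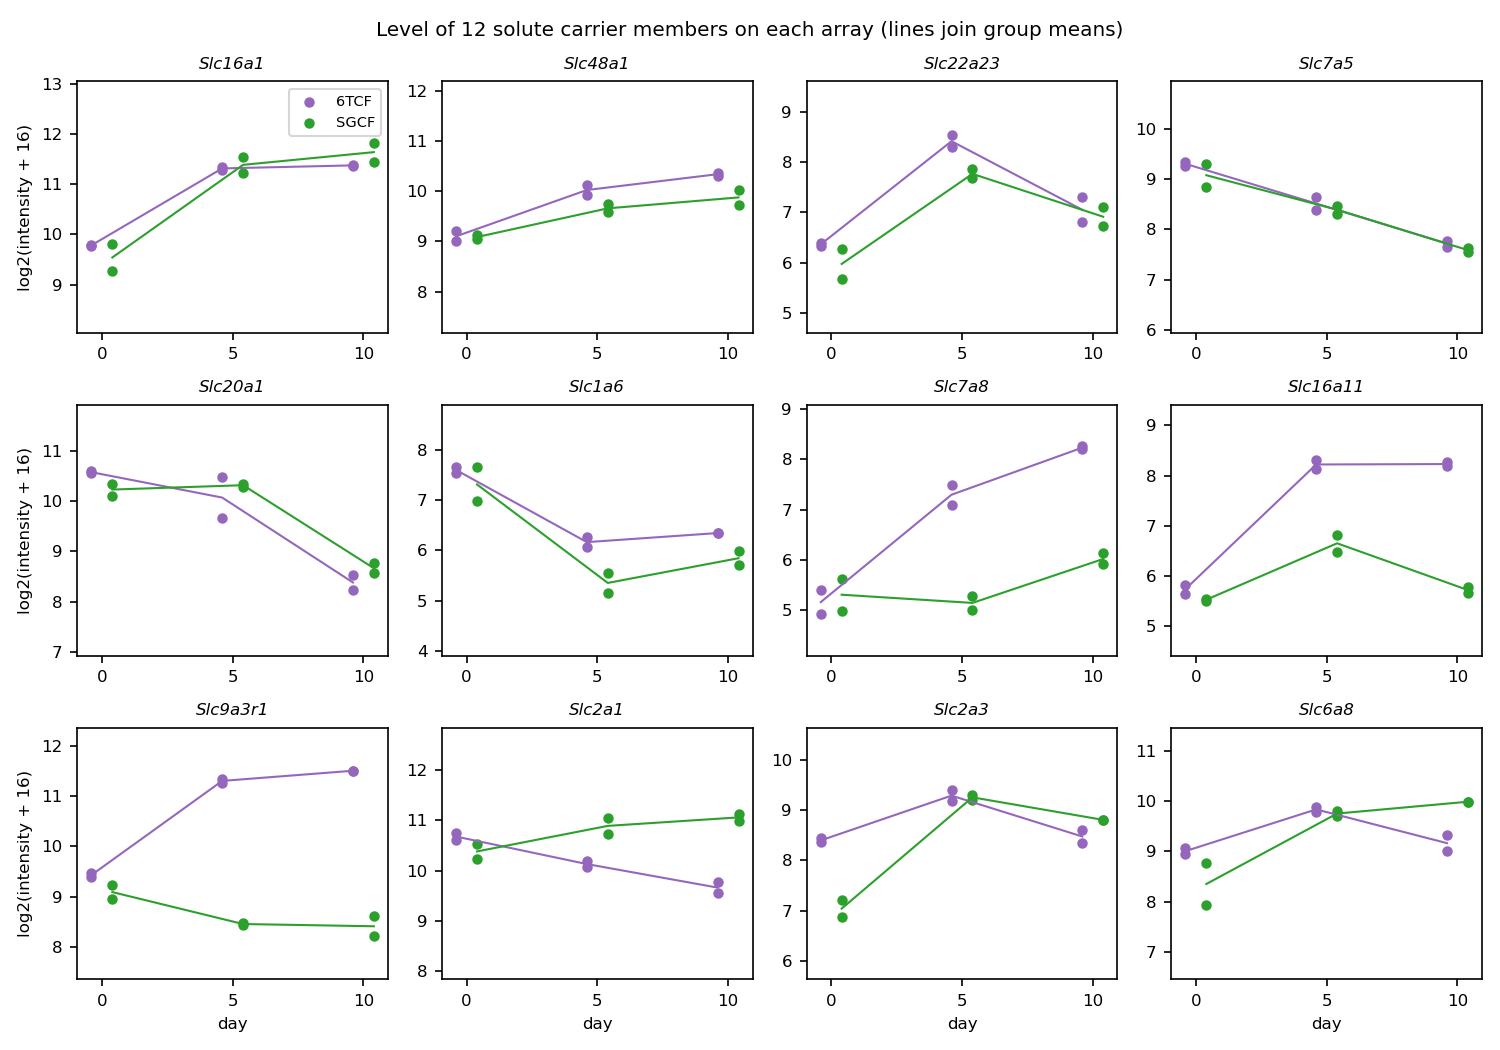
Level of 12 members on the log2(intensity + 16) scale (vertical axis, of equal span in every panel) by day (horizontal axis). Points are single arrays, 6TCF in purple and SGCF in green, drawn side by side at each day, and lines join the means of 2 arrays. Slc16a1 rises and Slc7a5 falls alike in both arms, Slc9a3r1 climbs on the 6TCF arrays and declines on the SGCF arrays, and Slc2a1 falls under 6TCF from 10.60 and 10.75 and rises under SGCF to 10.99 and 11.12.

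Sugar carriers numbered 7 members, and by day 10 the change differed between the arms in 4 of them, upwards under SGCF relative to 6TCF in 3 and downwards in 1, the glucose-6-phosphate carrier Slc37a4 (-0.63). Of all tested genes, 12.3% and 13.4% were called upwards and downwards in this difference. Slc2a1 encodes GLUT1, the basal glucose carrier of most proliferating cells. The level of Slc2a1 at days 0, 5 and 10 was 10.60 and 10.75, then 10.19 and 10.07, then 9.55 and 9.77 under 6TCF, and 10.53 and 10.23, then 10.74 and 11.04, then 10.99 and 11.12 under SGCF. At day 0 both SGCF arrays lay slightly below both 6TCF arrays, and at day 10 they lay above them by more than 1 log2 unit. Under 6TCF the change by day 10 was -1.02 ± 0.15 (SE, adjusted p = 1.92e-04) and under SGCF it was 0.68 ± 0.15 (SE, adjusted p = 0.00368).

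Slc2a3 encodes GLUT3, a high-affinity glucose carrier prominent in neurons. Slc2a3 stood at 8.44 and 8.36 on the day 0 arrays of the 6TCF arm, 9.40 and 9.17 at day 5 and 8.34 and 8.61 at day 10, and at 7.21 and 6.87, 9.21 and 9.30 and 8.81 and 8.80 on the corresponding SGCF arrays. It was lower at day 0 in the SGCF arm than in the 6TCF arm, and at day 5 the 4 arrays of both arms lay within 9.17 to 9.40. The SGCF rise was 2.21 ± 0.15 (SE, adjusted p = 4.28e-07) at day 5 and 1.77 ± 0.15 (SE, adjusted p = 2.15e-06) at day 10, and the 6TCF rise was 0.89 at day 5 with 0.08 at day 10. Averaging all probe sets of the gene gave 1.03 and 0.75 for SGCF. Slc2a10, an intracellular hexose carrier, read 6.94 and 6.92 at day 0 and 6.35 and 6.35 at day 10 of 6TCF and fell there by -0.58. Its SGCF change of 0.42 was not called, and it passed the level of 7 only at day 10 of SGCF. Slc37a4, the glucose-6-phosphate carrier of the endoplasmic reticulum, rose under 6TCF by 0.49 and 0.72 and changed by 0.09 under SGCF at day 10, which did not pass. Its relative Slc37a3, the second brightest of the class, was called in no change from day 0, with changes from -0.32 to 0.24.

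The mitochondrial Slc25 family supplied 24 members, of which 6 were called at no time from day 0. That is near the 26% of genes past the level of 7, where the share of all tested genes was 35.3%. At day 5, 8 were higher and 1 lower under 6TCF, where 15.1% and 12.6% of tested genes were called. Under SGCF 7 were higher and 0 lower at day 5, against 12.8% and 12.7%. At day 10 the counts were 8 higher and 3 lower under 6TCF, against 23.2% and 20%, and 6 higher and 3 lower under SGCF, against 20.5% and 18.3%. The phosphate carrier Slc25a3 and the ADP/ATP exchanger Slc25a4 lay between 12.55 and 13.10 on all arrays, and neither was called in any change from day 0. Slc25a5, another ADP/ATP exchanger, read 12.72 and 12.53 at day 0 and 12.37 and 12.15 at day 10 of SGCF and fell there by -0.37. Larger changes were found in carriers tied to particular pathways.

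Slc25a23, a calcium-regulated ATP-magnesium/phosphate carrier, rose in both arms. It passed the level of 7 only at day 10 of 6TCF, so the choice of members required it to read higher there. On the 6TCF arrays Slc25a23 read 5.67 and 5.55 at day 0, 6.54 and 6.93 at day 5 and 7.26 and 7.31 at day 10, and on the SGCF arrays 5.10 and 4.80, 5.91 and 5.80 and 5.91 and 6.45. The change by day 10 was 1.67 ± 0.19 (SE, adjusted p = 2.10e-05) under 6TCF and 1.23 ± 0.19 (SE, adjusted p = 2.62e-04) under SGCF, and no treated array overlapped day 0. Its SGCF value rested on dim arrays and was 1.86 with a pseudocount of 1 and 0.62 with 64. Slc25a13, the aspartate/glutamate carrier citrin of the malate-aspartate shuttle, stood at 7.94 and 7.88 at day 0 and 6.64 and 6.70 at day 10 of 6TCF. In the SGCF arm it read 7.63 and 7.57, 7.81 and 7.79 and 6.86 and 6.65 at days 0, 5 and 10, so the fall came after day 5. The day 10 change was -1.24 ± 0.12 (SE, adjusted p = 5.00e-06) under 6TCF and -0.85 under SGCF. Slc25a20, the carnitine/acylcarnitine exchanger that admits fatty acids for oxidation, rose at day 10 of 6TCF (1.02, from 9.50 and 9.46 to 10.52 and 10.47), and the difference between arms was -0.78. Slc25a51, the mitochondrial NAD carrier, rose by 0.71 under 6TCF and 1.03 under SGCF at day 10, while its second bright probe set gave -0.08 and 0.20.

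All 5 carriers of iron, copper and haem were called in at least 1 change from day 0. Of all tested genes 35.3% were called in none, and 26% of those past the level of 7. The smaller classes of carboxylate, organic ion, phosphate and nucleoside carriers likewise had 0 members called in none. Slc48a1 encodes HRG1, which moves haem out of lysosomes. Slc48a1 stood at 9.20 and 9.00 on the day 0 arrays of the 6TCF arm, 9.91 and 10.13 at day 5 and 10.31 and 10.36 at day 10, and at 9.05 and 9.12, 9.58 and 9.74 and 9.73 and 10.02 on the corresponding SGCF arrays. It rose at each later day, by 1.24 ± 0.14 (SE, adjusted p = 2.13e-05) under 6TCF and 0.79 ± 0.14 (SE, adjusted p = 7.55e-04) under SGCF at day 10. Its second bright probe set moved by 0.32 and 0.22 in these comparisons and by -0.05 at day 5 of SGCF.

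Slc40a1, ferroportin, is the iron exporter and is abundant in macrophages. The level of Slc40a1 at days 0, 5 and 10 was 7.72 and 7.47, then 6.63 and 6.60, then 6.90 and 7.14 under 6TCF, and 8.38 and 8.25, then 6.63 and 6.93, then 7.37 and 8.05 under SGCF. It fell most at day 5, by -0.98 ± 0.20 (SE, adjusted p = 0.00301) under 6TCF and -1.54 ± 0.20 (SE, adjusted p = 1.23e-04) under SGCF, and its SGCF arrays at day 10 did not overlap those of day 0. Of 18 macrophage marker genes, 15 fell at day 5 of 6TCF (median change -1.24) and 16 at day 5 of SGCF (median -2.55). At day 10, 13 fell under 6TCF (median -0.87) and 17 under SGCF (median -2.65). The summed macrophage marker intensity was 3854 to 3994 at day 0 of 6TCF and 1227 to 1363 at day 5, and 8403 to 9409 and 948 to 1162 at the same days of SGCF. The common leukocyte marker Ptprc was below the testing level of 5.25 in all later groups. The part of macrophage RNA in the Slc40a1 result was not tested. Slc31a1 (CTR1, the copper importer) rose by 0.52 and 0.43 at day 10 on its brightest probe set, where a second probe set gave -0.05 and -0.34. Slc11a2 (DMT1, an importer of ferrous iron) fell by -0.49 at day 10 of SGCF where a second probe set gave 0.53.

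Zinc carriers, 14 members, were called 3 higher and 2 lower at day 10 of 6TCF and 7 higher and 0 lower at day 10 of SGCF, with median changes of -0.02 and 0.36. Of all tested genes 23.2% and 20% were called higher and lower at day 10 of 6TCF, near the class's shares, and 20.5% and 18.3% at day 10 of SGCF. Slc30a4, which loads zinc into vesicles and into milk, had the largest change. On the 6TCF arrays Slc30a4 read 10.44 and 10.44 at day 0, 11.11 and 10.99 at day 5 and 10.35 and 10.42 at day 10, and on the SGCF arrays 10.33 and 10.40, 12.09 and 12.20 and 11.22 and 11.02. The day 5 rise was 1.78 ± 0.12 (SE, adjusted p = 4.15e-07) under SGCF and 0.61 ± 0.12 (SE, adjusted p = 0.00211) under 6TCF. By day 10 the 6TCF arm was at or just below its day 0 level and was not called, and the SGCF arm was above day 0 by 0.75. Slc39a6, the ZIP6 importer, was called in opposite directions at day 10, -0.34 under 6TCF and 0.43 under SGCF. Slc39a14, an importer of zinc and of iron, rose under SGCF (0.60) and Slc39a8, its close relative, rose in both arms at day 10 (0.60 and 0.68).

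Among 10 carriers of protons, sodium, calcium, magnesium and chloride, 2 were higher and 4 lower at day 10 of 6TCF and 5 higher and 0 lower at day 10 of SGCF, against 23.2% and 20%, and 20.5% and 18.3%, of tested genes. Slc8a1, the sodium/calcium exchanger NCX1, read 5.81 and 5.93 at day 0, 7.31 and 7.41 at day 5 and 6.12 and 6.82 at day 10 of 6TCF. The SGCF arrays read 5.55 and 5.21, then 6.95 and 7.02, then 6.47 and 6.40. The group mean of Slc8a1 passed the level of 7 only at day 5 of 6TCF, so the choice of members required a high reading there. Both arms peaked at day 5, with rises of 1.49 ± 0.19 (SE, adjusted p = 1.11e-04) under 6TCF and 1.61 ± 0.19 (SE, adjusted p = 6.84e-05) under SGCF, which averaging the gene's probe sets lowered to 0.57 and 0.63.

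Slc41 magnesium carriers supplied 3 members, of which Slc41a2 was called higher in both arms and Slc41a1 in opposite directions at day 10. Slc41a3 was called at day 5 of 6TCF alone among the changes from day 0 (-0.43), and changed by -0.18 and 0.24 at day 10. Slc41a2 read 7.87 and 7.92 at day 0 and 8.76 and 8.83 at day 5 of 6TCF, and 7.44 and 7.18 and 8.56 and 8.80 at those days of SGCF. It rose in both arms, by 0.90 and 1.37 ± 0.16 (SE, adjusted p = 5.85e-05) at day 5. Slc41a1, a plasma membrane magnesium exchanger, stood at 7.91 and 7.86 at day 0 and 7.28 and 7.24 at day 10 of 6TCF, against 7.73 and 7.20 and 8.35 and 8.23 under SGCF. It fell by -0.63 under 6TCF and rose by 0.82 under SGCF. Slc12a7 (KCC4, a potassium-chloride cotransporter that lets cells shed volume) fell under 6TCF by -1.19 ± 0.25 (SE, adjusted p = 0.00235), from 8.36 and 8.42 to 7.06 and 7.33. Under SGCF its change of 0.25 was within the spread of the arrays. Slc24a3, a potassium-dependent sodium/calcium exchanger, fell from 7.12 and 7.16 to 5.90 and 5.96 under 6TCF (-1.21 ± 0.13 (SE, adjusted p = 1.88e-05)). It passed the level of 7 only at day 0 of 6TCF. Slc12a2 (NKCC1), which loads cells with chloride, was not called in any change from day 0.

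Phosphate carriers gave the largest late fall. Slc20a1 encodes PiT-1, a sodium-phosphate cotransporter that takes up phosphate in most growing cells. Slc20a1 stood at 10.60 and 10.55 on the day 0 arrays of the 6TCF arm, 10.49 and 9.66 at day 5 and 8.24 and 8.52 at day 10, and at 10.35 and 10.11, 10.29 and 10.35 and 8.77 and 8.56 on the corresponding SGCF arrays. Its day 5 changes were not called in either arm, and its day 10 arrays lay below all others of the same arm. Between days 5 and 10 it fell by -1.69 ± 0.22 (SE, adjusted p = 8.38e-04) under 6TCF and -1.65 ± 0.22 (SE, adjusted p = 2.35e-04) under SGCF. Over all its probe sets these values were -0.96 and -0.95. The change from day 0 to day 10 was -2.20 ± 0.22 (SE, adjusted p = 8.50e-06) and -1.57 ± 0.22 (SE, adjusted p = 1.43e-04), or -1.27 and -0.96 over all probe sets. The related cotransporter Slc20a2 read 9.03 and 8.49 at day 0 and 9.54 and 9.83 at day 5 of SGCF, a rise of 0.93, and was not called under 6TCF.

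Of 3 organic ion carriers, 2 and 3 were called higher at days 5 and 10 of 6TCF and 1 and 2 under SGCF. Of 3 vitamin carriers the counts were 2 and 0, and 2 and 2, and 0 were lower in either class. Of tested genes 15.1% and 23.2% were higher under 6TCF and 12.8% and 20.5% under SGCF. The shares lower were 12.6% and 20%, and 12.7% and 18.3%. Slc22a23, a member of the organic ion family with no established substrate, peaked at day 5 in both arms. It passed the level of 7 only in groups after day 0, so the choice of members required it to read higher there. On the 6TCF arrays Slc22a23 read 6.34 and 6.39 at day 0, 8.54 and 8.29 at day 5 and 6.80 and 7.30 at day 10, and on the SGCF arrays 6.27 and 5.67, 7.68 and 7.85 and 7.10 and 6.72. The day 5 rises were 2.05 ± 0.21 (SE, adjusted p = 1.90e-05) and 1.79 ± 0.21 (SE, adjusted p = 6.40e-05), and between days 5 and 10 of 6TCF it fell by -1.37. Slc22a5 encodes OCTN2, the sodium-dependent carnitine carrier. The level of Slc22a5 at days 0, 5 and 10 was 6.81 and 6.92, then 7.70 and 7.95, then 8.76 and 8.68 under 6TCF, and 7.09 and 7.02, then 6.77 and 6.88, then 8.32 and 8.46 under SGCF. The 6TCF arm rose by 0.96 at day 5 and 1.85 ± 0.13 (SE, adjusted p = 3.38e-07) at day 10, whereas the SGCF arm showed -0.23 at day 5 and then 1.33 ± 0.13 (SE, adjusted p = 5.90e-06) at day 10. Its day 10 changes were 1.22 and 0.86 over all its probe sets.

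Slc23a2 encodes SVCT2, the sodium-dependent vitamin C carrier. Slc23a2 stood at 7.06 and 7.16 on the day 0 arrays of the 6TCF arm, 8.51 and 8.34 at day 5 and 7.07 and 7.33 at day 10, and at 6.81 and 6.56, 8.44 and 8.40 and 8.13 and 8.09 on the corresponding SGCF arrays. Both arms reached about the same level at day 5, and at day 10 the 6TCF arrays were near their day 0 values (0.09, not called) while both SGCF arrays lay above theirs. The day 5 rises were 1.32 ± 0.13 (SE, adjusted p = 1.52e-05) and 1.74 ± 0.13 (SE, adjusted p = 1.51e-06) (0.66 and 0.97 over all probe sets), and the SGCF change at day 10 was 1.43. Slc6a8, the creatine carrier, read 8.78 and 7.93 at day 0 and 9.99 and 9.99 at day 10 of SGCF. That rise was 1.64 ± 0.22 (SE, adjusted p = 9.66e-05), and 0.34 on its second bright probe set, while the 6TCF change of 0.16 was not called. Slc6a6, the taurine carrier, fell by -0.90 at day 10 of 6TCF and changed by 0.01 under SGCF. The thiamine carrier Slc19a2 rose at day 5 in both arms (0.40 and 0.50), and the folate carrier Slc19a1 was not called from day 0. Slc43a3, a carrier of purine nucleobases, read 7.19 and 7.09 at day 0 and 8.51 and 8.39 at day 10 of 6TCF, a rise of 1.31 ± 0.17 (SE, adjusted p = 6.71e-05), and 6.92 and 7.09 and 6.79 and 7.13 under SGCF. The nucleoside carrier Slc29a3, the brighter member of that class, was called only at day 10 of SGCF among the changes from day 0 (0.47). The choline carrier Slc44a1 rose by 1.08 under 6TCF and 0.74 under SGCF at day 10. A second bright probe set of Slc44a1 gave 0.56 and 1.07, so the order of the arms depends on the probe set. Its brighter relative Slc44a2 read 10.59 and 10.54 at day 0, 9.88 and 9.98 at day 5 and 9.79 and 9.80 at day 10 of 6TCF and fell by -0.63 and -0.77. Under SGCF it fell at day 5 (-0.63, where a second probe set gave 0.03) and changed by 0.06 at day 10, which was not called. Slc33a1, the acetyl-CoA carrier of the endoplasmic reticulum, rose under SGCF by 0.71 and 0.61 and was not called under 6TCF.

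The 13 nucleotide sugar carriers and Slc35 relatives, which supply the Golgi with substrates for glycosylation, moved late and little. At day 5, 1 was higher and 0 lower in each arm, against 15.1% and 12.6% of tested genes under 6TCF and 12.8% and 12.7% under SGCF. At day 10, 5 were higher and 2 lower under 6TCF and 4 higher and 0 lower under SGCF, against 23.2% and 20%, and 20.5% and 18.3%, of tested genes. Slc35a5 and Slc35f5 were higher in both arms at day 10, by 0.77 and 0.67 for the former and 0.41 and 0.42 for the latter. Slc35b1, at a mean of 10.2 over the arrays, fell by -0.44 at day 10 of 6TCF. Of the anion carriers, the sulfate carrier Slc26a2 rose at day 5 in both arms (0.66 and 0.40) and the bicarbonate exchanger Slc4a2 fell at day 10 of 6TCF (-0.85, from 7.95 and 7.96 to 7.03 and 7.18). The peptide carrier Slc15a4 of lysosomes was not called in any comparison.

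Slc9a3r1 carries an Slc symbol but is no carrier: it encodes NHERF1, a PDZ scaffold that anchors transporters to the cortical actin layer of epithelial cells. On the 6TCF arrays Slc9a3r1 read 9.47 and 9.38 at day 0, 11.35 and 11.26 at day 5 and 11.50 and 11.50 at day 10, and on the SGCF arrays 9.23 and 8.95, 8.44 and 8.47 and 8.21 and 8.61. The 6TCF arrays after day 0 lay above all others and the SGCF arrays after day 0 lay below all others, with no overlap. The change by day 10 was 2.08 ± 0.15 (SE, adjusted p = 4.67e-07) under 6TCF and -0.68 ± 0.15 (SE, adjusted p = 0.00305) under SGCF. The related scaffold Slc9a3r2 fell under 6TCF by -0.82 and was not called under SGCF. In the same arrays 5 of 6 mesothelial marker genes rose at day 10 of 6TCF (median change 1.89) against 1 of 6 under SGCF (median 0.02). The summed intensity of that list was 1762 to 1979 at day 0 and 6279 to 6964 at day 10 of 6TCF, and 784 to 809 and 579 to 855 at the same days of SGCF. Among them Wt1 and Upk3b were higher at both later days of 6TCF while Msln was lower, from 8.39 to 6.26. The part of mesothelial RNA in the 6TCF rises was not tested.

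Promoter sequence is shown for 4 members whose windows hold a marked motif: Slc16a1, higher in both arms, Slc20a1 and Slc1a6, lower in both arms by day 10, and Slc1a4, which dipped and returned under SGCF. They do not represent all members of these directions. Slc22a23, Slc41a2 and Slc8a1, higher in both arms, and Slc7a6, lower in both, had no E-box (described below) in their windows. Of the 115 members, 90 were found in the RefSeq promoter table (build GRCm38.p6), with 121 windows that each cover an annotated start and mostly the bases before it. In the first 3 sequences capitals mark the palindromic E-box CACGTG, bound by MYC, MITF and TFE family factors among others. In the Slc1a4 sequence capitals mark a match on the opposite strand to TGATGNAA, the core of the amino acid response element bound by ATF4. Each sequence is given 5′ to 3′ on the strand of the gene.
Slc16a1, chr3:104638414-104638713 (+ strand): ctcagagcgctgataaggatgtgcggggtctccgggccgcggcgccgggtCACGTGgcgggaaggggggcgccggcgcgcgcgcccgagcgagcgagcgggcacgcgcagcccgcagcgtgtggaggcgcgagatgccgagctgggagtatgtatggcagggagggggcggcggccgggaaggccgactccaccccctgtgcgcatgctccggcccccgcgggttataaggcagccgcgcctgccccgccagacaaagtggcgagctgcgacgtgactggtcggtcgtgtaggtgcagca
Slc20a1, chr2:129198523-129198822 (+ strand): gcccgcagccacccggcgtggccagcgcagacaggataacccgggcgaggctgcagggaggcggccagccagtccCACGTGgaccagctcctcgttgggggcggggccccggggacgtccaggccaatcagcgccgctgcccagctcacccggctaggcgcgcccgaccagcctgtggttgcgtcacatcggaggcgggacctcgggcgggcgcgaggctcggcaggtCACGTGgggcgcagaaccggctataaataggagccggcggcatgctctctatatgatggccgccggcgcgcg
Slc1a6, chr10:78780246-78780545 (+ strand): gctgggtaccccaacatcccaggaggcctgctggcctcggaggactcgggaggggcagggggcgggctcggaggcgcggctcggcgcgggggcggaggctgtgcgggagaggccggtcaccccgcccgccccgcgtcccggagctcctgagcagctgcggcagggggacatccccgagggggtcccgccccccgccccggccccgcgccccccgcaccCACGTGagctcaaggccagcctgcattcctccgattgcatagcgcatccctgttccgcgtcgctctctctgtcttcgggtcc
Slc1a4, chr11:20332664-20332963 (- strand): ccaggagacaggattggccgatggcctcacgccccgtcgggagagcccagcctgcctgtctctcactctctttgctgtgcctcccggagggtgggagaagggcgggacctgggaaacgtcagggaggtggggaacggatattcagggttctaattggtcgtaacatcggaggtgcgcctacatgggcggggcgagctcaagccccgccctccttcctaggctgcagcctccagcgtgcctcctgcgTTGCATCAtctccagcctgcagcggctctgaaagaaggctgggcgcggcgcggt

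The E-box began at -200 from the start site in Slc16a1, at -175 and -22 in Slc20a1 (the first of its 2 windows) and at -32 in Slc1a6, and the Slc1a4 match began at -4. CACGTG was present in 16.5% of member windows and 7.15% of all 32851 windows. TGATGNAA, searched on both strands, was present in 1.65% and 3.97%, and among members it was found in Slc1a4 and Slc50a1. The GC box GGGCGG, searched on both strands, was present in 74.4% of member windows and 35.7% of all windows, so these windows differ from the rest in base composition too. The 18 matched members with an E-box included 7 called higher and 4 lower at day 10 of 6TCF, and 6 higher and 4 lower at day 10 of SGCF. The 72 without it included 21 higher and 14 lower, and 25 higher and 3 lower. A match is a run of letters, and binding was not measured.

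Between days 5 and 10 fewer members moved. Under 6TCF 10 were higher and 16 lower, against 8.69% and 7.12% of tested genes, and under SGCF 13 were higher and 14 lower, against 11.7% and 9.97%. The 2-fold changes were the falls of Slc20a1 in both arms, of Slc22a23 and Slc23a2 under 6TCF (-1.23 for the latter), and of Slc25a13 (-1.04) and Slc30a4 (-1.03) under SGCF, with the SGCF rises of Slc22a5 (1.56 ± 0.13 (SE, adjusted p = 6.34e-06)) and Slc1a4. The 6TCF count of 26 became 7 without the day 5 replicate 1 array, 6 without day 10 replicate 1 and 14 without day 10 replicate 2. For SGCF the count of 27 became 16 without day 5 replicate 1 and 11 without day 10 replicate 2. Those 6TCF and SGCF counts therefore depend on single arrays.

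The 2 combinations were compared by the difference of their changes, each from its own day 0. By day 5, 8 members had changed more in the upward direction under SGCF and 5 more under 6TCF, where 2.91% and 6.06% of tested genes were called. By day 10 the counts were 24 and 10, where 12.3% and 13.4% of tested genes were called. The median difference of members at day 10 was 0.22, against 0.01 for all tested genes. The count of 34 at day 10 became 20 without either day 0 array of 6TCF, 18 without 6TCF day 10 replicate 1 and 21 without SGCF day 10 replicate 2.

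**Figure D3:**
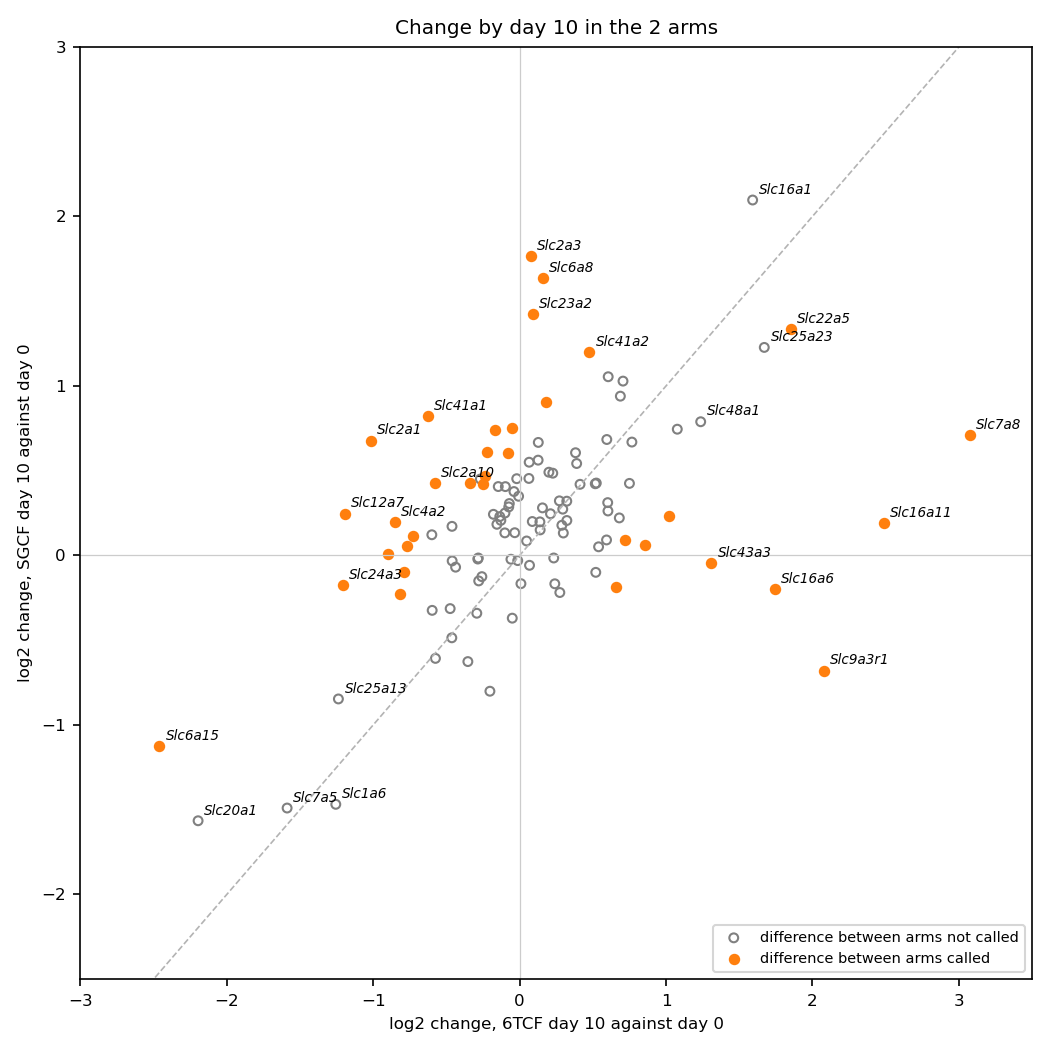
Log2 change by day 10 under 6TCF (horizontal axis) and under SGCF (vertical axis) of the 115 members, each from its own day 0 arrays. Orange points had a called difference between the arms and open points did not, the dashed line marks equal change, and names are given for members with a large change or difference. Slc16a1 lies at 1.59 and 2.10 and Slc7a5 at -1.59 and -1.49, near the line, while Slc9a3r1 (2.08 and -0.68) and Slc2a1 (-1.02 and 0.68) lie in opposite quadrants.

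Of the 10 members whose difference by day 10 lay on the side of 6TCF, those past 2-fold were Slc9a3r1, Slc7a8, Slc16a11, Slc16a6 and Slc43a3. Their differences at day 10, coded as SGCF minus 6TCF, were -2.76 ± 0.21 (SE, adjusted p = 9.97e-06) for Slc9a3r1 and -2.36 ± 0.31 (SE, adjusted p = 3.80e-04) for Slc7a8. Slc16a11 differed by -2.30 ± 0.19 (SE, adjusted p = 1.73e-05) and Slc16a6 by -1.94 ± 0.26 (SE, adjusted p = 4.28e-04). The day 0 means of 6TCF and SGCF were 9.43 and 9.09 for Slc9a3r1, 5.16 and 5.30 for Slc7a8, 5.74 and 5.53 for Slc16a11 and 5.62 and 5.53 for Slc16a6, so the arms started close together and parted later. Slc7a8, Slc16a11 and Slc16a6 passed the level of 7 only in 6TCF groups after day 0. The choice of members thus required them to read higher there.

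The members higher under SGCF relative to 6TCF were led by both glucose carriers. The day 10 difference was 1.69 ± 0.21 (SE, adjusted p = 2.51e-04) for Slc2a1 and 1.69 ± 0.21 (SE, adjusted p = 2.24e-04) for Slc2a3 (0.81 over all its probe sets). For Slc2a3 the group means were 8.40 and 7.04 at day 0 and 8.47 and 8.80 at day 10 of 6TCF and SGCF, so the larger part of its difference lay in the day 0 arrays. The creatine carrier Slc6a8 differed by 1.48 ± 0.31 (SE, adjusted p = 0.00554), with means of 9.01 and 8.35 at day 0 and 9.17 and 9.99 at day 10. The day 0 means of Slc6a15 were 7.37 and 6.45, and its day 10 means 4.91 and 5.32. Slc41a1 differed by 1.45 ± 0.22 (SE, adjusted p = 9.39e-04) and Slc23a2 by 1.33 ± 0.19 (SE, adjusted p = 5.59e-04), which was 0.59 over all probe sets. Slc4a2 differed by 1.05, from day 0 means of 7.96 and 7.23. Slc24a3 differed by 1.04 (0.68 with a pseudocount of 64) and Slc2a10 by 1.00, the latter a call that was lost without SGCF day 10 replicate 2 (0.79). Slc12a7 differed by 1.44 ± 0.36 (SE, adjusted p = 0.0135), a call that was lost without 6TCF day 10 replicate 1 and without SGCF day 0 replicate 2.

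**Figure D4:**
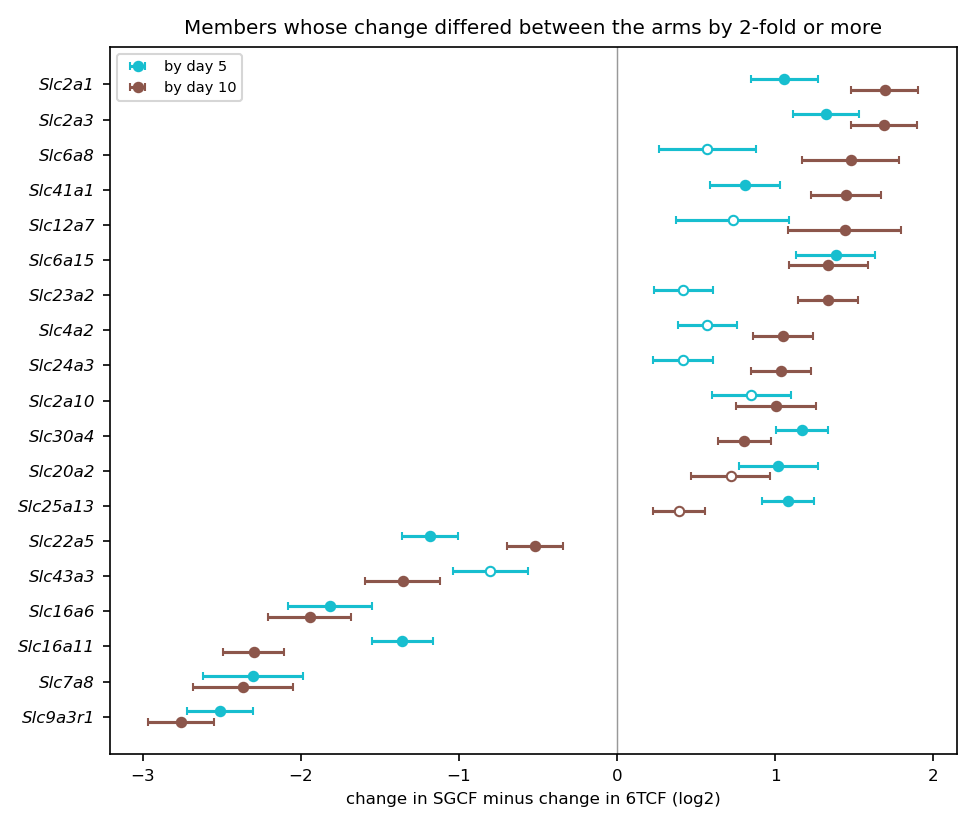
Difference in change between the arms (SGCF minus 6TCF, log2, horizontal axis) with its standard error, by day 5 (cyan) and by day 10 (brown), for members with a called difference of 2-fold or more at either day. Filled points were called and open points were not. The 6 names from Slc22a5 down lie left of 0, ending at -2.76 for Slc9a3r1, and the other names lie to the right, up to 1.69 for Slc2a1.

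Proteins that serve the same traffic were described from lists of related genes. Of 12 tested chaperones and partners, 3 were higher and 4 lower at day 10 of 6TCF and 4 and 4 at day 10 of SGCF, where 23.2% and 20%, and 20.5% and 18.3%, of tested genes were called. Emb (embigin), which chaperones monocarboxylate carriers to the membrane, rose by 2.01 and 2.48 at days 5 and 10 of 6TCF and by 1.14 and 2.00 under SGCF, alongside Slc16a1. Bsg (basigin), its relative with the same task, rose by 0.35 and 0.62 at day 10. Txnip, which lowers GLUT1 at the cell surface and follows glucose supply, rose by 1.38 and 1.44 at day 10. Between days 5 and 10 it rose by 1.09 and 1.73, and its SGCF mean was 9.75 at day 0 and 9.46 at day 5. Cd44, a hyaluronan receptor that steadies some carriers at the membrane, fell by 1.65 on the log2 scale under 6TCF and by 0.92 under SGCF, with -1.03 already at day 5 of 6TCF. The kinase Wnk1, which regulates cation-chloride carriers, differed between the arms by 1.23 at day 10.

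The 8 tested sodium pump subunits were beta chains (Atp1b) and Fxyd regulators, with no catalytic alpha chain among them. Their pump maintains the gradient that sodium-coupled carriers use. Of these 8, 5 were higher and 1 lower at day 10 of 6TCF. At day 10 of SGCF 4 were higher and 1 lower, against the same shares of tested genes. Fxyd6 rose by 2.40 and 1.84, Atp1b2 by 1.40 and 1.71, and Atp1b1 by 1.14 under 6TCF. At day 5 Fxyd6 had risen by 2.12 and 1.95 and Atp1b2 by 1.01 under SGCF. The Atp1b1 change differed between the arms by -1.07 and -1.29 at days 5 and 10. Fxyd5 changed by -1.77 and -0.86 at day 10 and by -1.55 at day 5 of 6TCF, where the arms differed by 2.00. It fell between days 5 and 10 of SGCF (-1.32). Fxyd1 and Fxyd2 rose at day 10 of SGCF by 1.01 and 1.03, Fxyd1 by 1.46 from day 5. Of 32 ABC transporters, which move substrates with ATP, 11 were higher and 5 lower at day 10 of 6TCF, where 23.2% and 20% of tested genes were called, and 8 and 5 at day 10 of SGCF, close to the 20.5% and 18.3% of tested genes. The cholesterol exporter Abca1 rose by 1.86 and 2.00 and the drug exporter Abcb1a by 2.08 and 1.72, while Abcg2 changed by -1.06 and -0.96. At day 5 of 6TCF Abca1 had changed by 1.64, Abcb1a by 1.81 and Abcg2 by -1.48. At day 5 of SGCF Abcb1a had risen by 2.01 and Abcd4 by 1.06, and Abca1 rose there after day 5 (1.44). Under 6TCF Abca8a rose by 1.55 at day 10 and the drug exporter Abcc1 fell by -1.18, of which -1.17 came after day 5. Differences between the arms past 2-fold were those of Abca3 by day 5 (-1.17) and of Abcc1 (1.59), Abca8a (-1.24) and Abcg1 (-1.21) by day 10. Of 14 listed organic anion polypeptides (Slco), 5 were bright enough to be tested. Among these, 3 were higher and 0 lower at day 10 of 6TCF, against 23.2% and 20% of tested genes, and 2 and 0 at day 10 of SGCF, against 20.5% and 18.3%.

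Among 22 other carriers and importers, 5 were higher and 2 lower at day 10 of 6TCF and 9 and 3 at day 10 of SGCF, against 23.2% and 20%, and 20.5% and 18.3%, of tested genes. The water channel Aqp1 rose by 2.51 and 2.28, and Aqp5 by 1.33 under 6TCF. At day 5 of 6TCF Aqp1 had risen by 2.66, Aqp5 by 1.58 and Aqp3 by 1.22, and at day 5 of SGCF Aqp3 by 1.48. The SGCF rise of Aqp1 came mostly after day 5 (1.57), and the arms differed by -1.96 for Aqp1 at day 5 and by -1.44 and -1.51 for Aqp5. Ank, which passes pyrophosphate out of the cell, rose by 1.49 at day 5 of SGCF and fell by -1.03 between days 5 and 10 of 6TCF, and the arms differed by 1.22 and 1.35. The synaptic vesicle protein Sv2a fell by -1.14 at day 5 of SGCF. At day 10 of SGCF Mfsd1 rose by 1.00 and Ttyh2 by 1.02, with a difference between the arms of 1.01 for Ttyh2. The fatty acid receptor Cd36, also a macrophage gene, changed by -1.51 and -1.82 at days 5 and 10 of SGCF, and the arms differed by -2.04 at day 10. Flvcr2 rose by 1.35 at day 10 of SGCF, where the arms differed by 1.25. The transferrin receptor Tfrc, which brings in iron, changed by -0.69 and -0.59. Neuron marker genes, 7 tested, were 6 higher and 1 lower at day 5 of SGCF (median change 2.73) and 4 higher and 0 lower at day 5 of 6TCF (median 1.85). Their summed intensity was 933 to 985 at day 0 and 7791 to 8073 at day 5 of SGCF, with Tubb3 falling from 7.62 to 5.99 and Dcx below 5.25 in every group. Slc2a3, Slc8a1 and Slc30a4 peaked at the same day, and the part of such cells in those peaks was not tested.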

How the data were processed

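The authors deposited 1 linear intensity per probe set and array, and per the submitters' processing notes RMA, MAS5 and limma were used, without stated roles or versions. The deposited intensities were not on a common scale between arrays. Here 16 was added, log2 taken and the 12 arrays quantile normalized. Probe sets with a single symbol in the platform annotation were kept (20380 of 22690; 691 had several symbols and 1555 none), each gene was represented by its brightest probe set, and genes whose highest group mean exceeded the 25th percentile of all probe set values (5.25) were tested. limma 3.58.1 in R 4.3.3 fitted 6 group means on all 12 arrays, with Benjamini-Hochberg adjustment over 10674 genes within each of 8 comparisons. Only 2 arrays a group limit the precision. The fit was tested on simulated data.

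Named with values are, in each comparison, the 8 members that rose most and the 8 that fell most, if called, at least 2-fold and without overlap of arrays (not required for differences between the arms), in each substrate class the 2 brightest and every member called and at least 2-fold from day 0, the 2 members nearest the level of 7 on each side, and related genes called and at least 2-fold. Further members named for their role, and the differences between the arms past the first 8, were chosen after their values were seen. The members, substrate classes and gene lists were chosen with earlier results of these data known, and the classes of Slc66a1, Slc66a2 and Slc9b1 were assigned after the data were seen. Symbols were matched to RefSeq (GRCm38.p6), from which promoters were taken. Alternatives were median scaling, normalization within arms, pseudocounts of 1 and 64, no filter, the mean of all probe sets, the replicate number as a block, the arm's arrays alone, other member levels, and each array left out.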

Additional observations from a re-analysis of the deposited data

Results flagged for a closer look

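Each of the following members changed differently in the 2 arms by limma's test of the difference in change (SGCF minus 6TCF, log2), at an adjusted p below 0.05 and at least 2-fold. By day 5 the difference was above 0 for Slc6a15 (1.38), Slc2a3 (1.32), Slc30a4 (1.17), Slc25a13 (1.08), Slc2a1 (1.06) and Slc20a2 (1.02). It was below 0 by day 5 for Slc9a3r1 (-2.51), Slc7a8 (-2.30), Slc16a6 (-1.81), Slc16a11 (-1.36) and Slc22a5 (-1.18). The Slc20a2 call was lost without either day 0 array of 6TCF, without 6TCF day 5 replicate 2, and without replicate 2 of SGCF at day 0 or day 5, where values ran from 0.75 to 1.03. The Slc22a5 call at day 5 was lost over the mean of its probe sets (-0.57).

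By day 10 the difference was above 0 for Slc2a1 (1.69), Slc2a3 (1.69), Slc6a8 (1.48), Slc41a1 (1.45), Slc12a7 (1.44), Slc6a15 (1.34), Slc23a2 (1.33), Slc4a2 (1.05), Slc24a3 (1.04) and Slc2a10 (1.00). It was below 0 by day 10 for Slc9a3r1 (-2.76), Slc7a8 (-2.36), Slc16a11 (-2.30), Slc16a6 (-1.94) and Slc43a3 (-1.35). Groups of 2 arrays are too small for a check of single outlying arrays.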

How the results depend on the processing

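The counts of called members were 44, 57 and 26 for day 5, day 10 and day 10 against day 5 of 6TCF, 36, 51 and 27 for the same comparisons of SGCF, and 13 and 34 for the differences between the arms by days 5 and 10. Leaving out each array of the groups compared in turn, in the fit that pools the spread so that a lone array is assumed to vary like the other groups, gave 26 to 36, 35 to 43, 6 to 24, 24 to 42, 38 to 50, 11 to 21, 10 to 19 and 18 to 46 in that order. Restricting the members to those above 7 in all groups left 25, 36, 23, 6 and 21 called for 6TCF day 5, 6TCF day 10, SGCF day 5 and the differences by days 5 and 10.

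With the replicate number as a replicate block the counts were 38, 53, 18, 34, 45, 25, 14 and 29 in the same order. The arrays share only a number: deviations of same-numbered arrays correlated between -0.28 and 0.11. Of 436 values of named member changes under left-out arrays, 428 kept their call, and of 83 such changes 82 kept it over the mean of all probe sets, with 0 reversed in either. Median scaling, normalization within arms, other pseudocounts, no filter and the arm's arrays alone kept each count within 1.5 times. With 2 arrays a group, a left-out array leaves 1.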
